A study of Saccharomyces cerevisiae with 6 samples.

Results

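Stable unannotated transcripts (SUTs) are long non-coding RNAs (lncRNAs) of Saccharomyces cerevisiae, and the loci described here are the rows of the deposited count table whose name begins with SUT. They were chosen by name alone, and no measured value entered the choice. There were 1066 such rows among 10239 rows that name a locus, and they made up 29.0% of the 3681 lncRNA rows, beside 6558 protein-coding rows. The table also held 538 CUT, 604 MUT and 837 XUT rows. Reads were counted in root cells (3 libraries) and aerial cells (3 libraries) of the same biofilm colonies. Both cell types came from the wild diploid strain BR-F, grown as 3-day-old colonies on low-agar glycerol medium with no other treatment. Root cells grow into the agar below a porous membrane and aerial cells form the colony above it, so lifting the membrane separated them. Root pellets were spun out of agar and held traces of it, and each library is an average over a whole subpopulation, so fewer cells of a kind and less RNA per cell cannot be told apart.

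SUTs are made by RNA polymerase II, mostly from nucleosome-free regions at the ends of protein-coding genes, and they are capped, polyadenylated and long-lived enough to be seen in wild-type cells. Cryptic unstable transcripts (CUTs), by contrast, are normally detected only when the nuclear exosome is impaired, XUTs when the cytoplasmic exonuclease Xrn1 is missing, and MUTs are transcripts that accumulate in meiosis. Single SUTs are known to act on a neighbouring gene by antisense transcription, by shifting the start of an mRNA or by changing where its 3′ end forms, while most have no known role.

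The table gives names and counts with no position or sequence. RefSeq annotates 9 SUT names on its R64 assembly, the build that the submitters name, and 6 of these were among the rows. A further row, SUT527, was matched through RefSeq's note on the gene RUF20, which makes 7 rows with a position. The first 120 bases of 4 of them, 5′ to 3′ on the strand of the transcript, are shown because these are the members whose place beside a gene or beside each other is described further on. Capitals mark the letters GTAA or GTAG, the core bound as RNA by Nrd1, and TCTT, the core bound by Nab3, the pair of proteins that ends short non-coding transcription. SUT527 is read from chrVI:131384-131503 on the minus strand, SUT169 from chrVIII:378254-378373 on the plus strand, SUT053 from chrIV:506334-506453 on the plus strand and SUT468 from chrIV:507331-507450 on the minus strand.
SUT527: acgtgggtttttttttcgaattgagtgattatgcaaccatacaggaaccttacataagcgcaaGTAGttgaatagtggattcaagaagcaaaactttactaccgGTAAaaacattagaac
SUT169: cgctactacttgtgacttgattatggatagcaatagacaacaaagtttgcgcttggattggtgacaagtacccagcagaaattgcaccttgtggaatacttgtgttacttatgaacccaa
SUT053: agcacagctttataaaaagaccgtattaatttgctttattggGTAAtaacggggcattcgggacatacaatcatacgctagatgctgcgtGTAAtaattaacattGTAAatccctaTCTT
SUT468: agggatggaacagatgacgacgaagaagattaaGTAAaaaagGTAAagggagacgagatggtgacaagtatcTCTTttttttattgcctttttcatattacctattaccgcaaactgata
SUT527, SUT053 and SUT468 held GTAA or GTAG, SUT053 and SUT468 also held TCTT, and SUT169 held none of these 4-letter cores. Of 201174 windows of 120 bases laid end to end on both strands of the 16 nuclear chromosomes, 55.7% held GTAA or GTAG and 56.1% held TCTT, so a match was common.

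Each library held between 13764726 and 17095539 counts. The study probed genes that it had picked by their sequencing difference between these cell types. All 8 of them fell on the side their labels gave. Because they were picked on the same samples, this is no independent check of the labels. The root gene HXK2 had a log2 fold change of root over aerial of 2.35, and the aerial gene RGI2 of -2.65. Over SUT loci, aerial libraries lay 0.676 to 0.802 log2 units from each other (root mean square), root libraries 0.422 to 0.557, and libraries of different cell types 0.882 to 0.993. Counts of replicates differed by more than sampling noise, so no library was counted as a copy of another. The study describes the 3 replicates of each cell type as independent biological ones, each harvested from many colonies.

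SUT loci took up a small and similar share of the reads in both cell types. They held 0.396%, 0.388% and 0.428% of all counts in root libraries, against 0.413%, 0.401% and 0.473% in aerial libraries. The means were 0.404% ± 0.0213 in root cells and 0.429% ± 0.0386 in aerial cells (SD, n = 3 each), and the ranges overlapped. Of the lncRNA counts alone, SUT loci held 8.98%, 10.4% and 8.39% in root libraries, and 5.05%, 15.9% and 11.2% in aerial libraries. Without the 5 lncRNA rows with the most counts, none of which is a SUT, the same share averaged 35.0% in root cells and 34.7% in aerial cells.

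Every SUT row had at least 1 count, and the rows ranged up to 9618 counts over the 6 libraries, with a median of 130. The 50 rows with the most counts held 41.2% of the 388066 SUT counts. A count in each of the 6 libraries was present for 918 rows. The filter on low counts passed 732 rows (68.7%), and the 334 rows it removed had at most 75 counts each, too few to compare. All counts of calls below are over the 732 rows tested.

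A locus was called changed at an adjusted p below 0.05 and a fold change of at least 2 by edgeR's quasi-likelihood test with Benjamini-Hochberg adjustment over all loci. Of the SUT loci, 131 (17.9%) were called, against 20.0% of all 7971 loci tested and 15.9% of the other lncRNA loci. Higher in root were 62 SUT loci (8.47%, against 10.8% of all loci), and higher in aerial 69 (9.43%, against 9.2% of all loci). Both shares lay near the background, and both counts moved with single libraries. Calls higher in root were 36 and 41 without root replicates 1 and 3, and calls higher in aerial 39, 38 and 44 without root replicates 1, 2 and 3 and 45 without aerial replicate 3, while without aerial replicate 2 they were 61 higher in root and 96 higher in aerial. The median log2 fold change of SUT loci was -0.04, beside -0.03 over all loci, and the values ran between -3.44 and 2.48 with quartiles of -0.57 and 0.46.

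**Figure D1:**
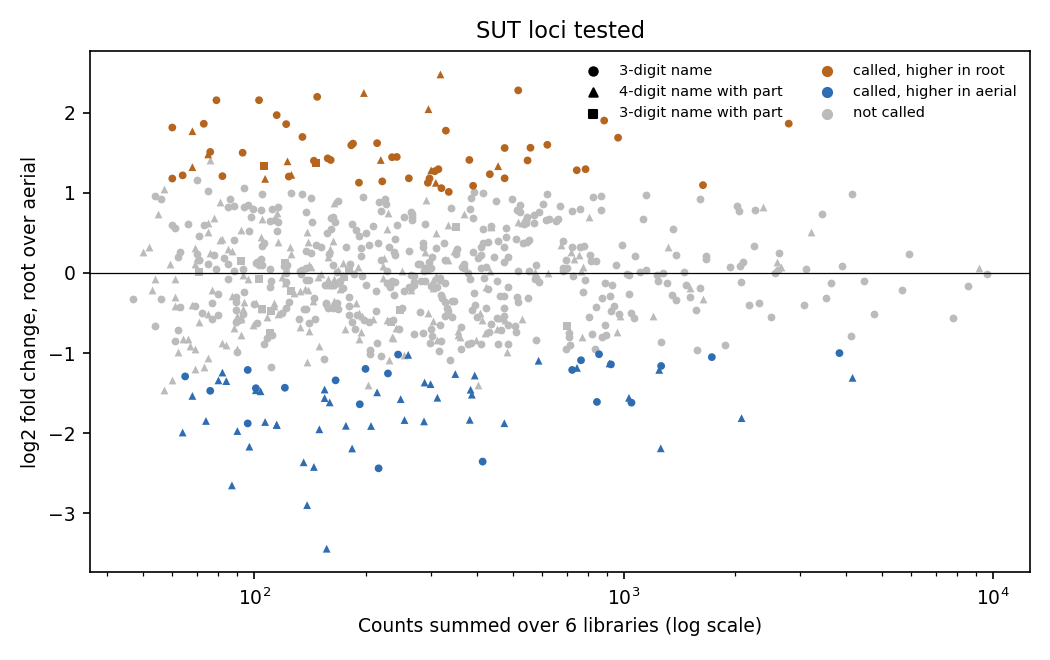
The log2 fold change of root over aerial of each SUT locus tested is plotted against its counts summed over the 6 libraries. The axis of counts is logarithmic and called loci are in colour. Called loci lie on both sides of 0 at low and high counts, 62 higher in root and 69 higher in aerial.

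Most called SUT loci changed moderately. The median log2 fold change was 1.41 among those higher in root and -1.52 among those higher in aerial, 72 of the 131 lay within 1.5 of 0 and 17 reached 2 or more in size. Levels are given in CPM, counts scaled by the adjusted total of each library. CPM of root and aerial libraries did not overlap for 284 of the SUT loci (38.8%, against 48.5% of all loci). Among called loci, it did not overlap for 128 of the 131 SUT loci and for 1558 of 1593 over all loci. At any fold change, 181 SUT loci (24.7%) had an adjusted p below 0.05, against 31.6% of all loci. SUT loci were measured less precisely, with a median SE of 0.32 on the log2 scale beside 0.25 over all loci. In 4 equal bins of 183 loci by count, the calls numbered 35, 35, 34 and 27 with increasing counts, and the median SE fell to 0.24 in the bin with the most counts, against 0.40 in the bin with the fewest.

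The called loci differed by the form of their names. Names of 3 digits (601 rows, such as SUT065) and names of 4 digits with a part number (433 rows, such as SUT1395.2) are both present, along with 32 rows of 3 digits with a part number. Which annotation each form was taken from is not given in the sources used here. Among 481 loci tested with 3-digit names, 47 (9.77%) were higher in root and 22 (4.57%) higher in aerial, and their median log2 fold change was 0.05. Among 235 loci tested with 4-digit part names, 13 (5.53%) were higher in root and 47 (20.0%) higher in aerial, and the median was -0.35. The shares over all loci were 10.8% and 9.2%. Of the 16 tested with 3-digit part names, 2 were called, both higher in root, and the median over the 16 was -0.06. These names carry a part number as the 4-digit names do. They are kept apart here by their digits and pooled with the 4-digit names where parts are compared below. The split by name form was not among the planned comparisons. The difference between the name forms was not given a test, because loci are not replicates of a condition.

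The gap between the medians of the name forms varied with the counts and was least clear in the bin with the most. Calls of 4-digit part names were mostly higher in aerial in every bin. In the 4 bins by increasing counts, 82, 67, 54 and 32 loci with 4-digit part names were tested. Of these, 4, 4, 5 and 0 were called higher in root, and 14, 12, 13 and 8 higher in aerial. For 3-digit names, 94, 110, 127 and 150 were tested, and 10, 13, 14 and 10 were called higher in root. Higher in aerial were 6, 5, 2 and 9 of them. The median log2 fold changes of these bins were -0.41, -0.21, -0.53 and 0.01 for 4-digit part names, and 0.15, 0.02, -0.002 and 0.02 for 3-digit names, so the medians did not stand apart in the bin with the most counts. The 4-digit part names held 21.3%, 21.1% and 21.3% of SUT counts in root libraries, against 25.6%, 24.0% and 25.5% in aerial libraries, with no overlap. Leaving out 1 library at a time, calls higher in root among 3-digit names numbered 29 to 54 and calls higher in aerial 6 to 38, the 38 without aerial replicate 2, when 48 were higher in root. Among 4-digit part names they numbered 7 to 17 higher in root and 30 to 57 higher in aerial. The calls present in each of the 6 such fits were 25 higher in root and 5 higher in aerial for 3-digit names, and 7 and 26 for 4-digit part names. Of the other lncRNA names, MUT loci had 4 called higher in root and 70 higher in aerial (1.8% and 31.5% of 222), CUT loci 24 and 5 (10.6% and 2.2% of 227), and XUT loci 32 and 42 (5.58% and 7.33% of 573). Protein-coding loci had 709 and 536 (12.1% and 9.13% of 5873).

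**Figure D2:**
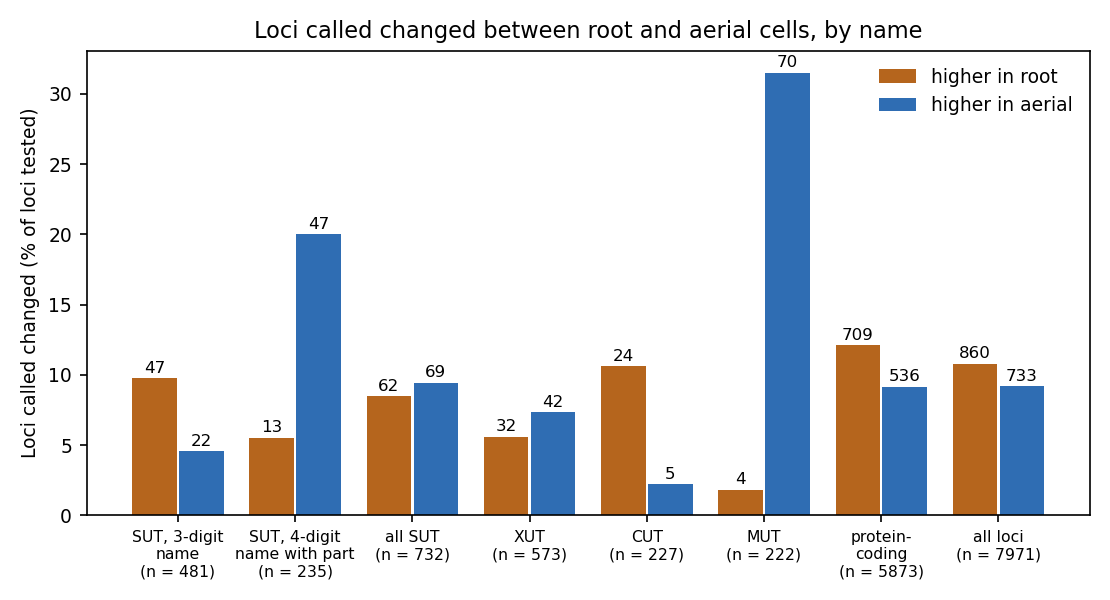
The percentage of loci tested that were called higher in root (left bar of each pair) and higher in aerial (right bar) is drawn by kind of name. The 3-digit SUT names reach 9.77% and 4.57%, and the 4-digit part names 5.53% and 20.0%.

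The SUT loci that rose most in root cells reached about the same size of change at different levels. These 8, and the 8 that fell most, were picked among called loci whose CPM did not overlap. Non-overlap in them was thus set by the choice and is no result. SUT1395.2 had 5.77, 5.12 and 6.33 CPM in root libraries, against 1.25, 0.913 and 0.948 CPM in aerial libraries (log2 fold change 2.48, SE 0.26, edgeR adjusted p = 0.000737). The spread within each cell type was small beside the gap between them. SUT065 had 9.08, 8.04 and 10.3 CPM in root libraries, against 2.84, 1.88 and 1.01 CPM in aerial libraries (2.28, SE 0.34, edgeR adjusted p = 0.00203). It was the one with the most counts among the 8 SUT loci with the largest increases, and its aerial libraries differed more from each other than its root libraries did on the log scale.

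SUT712 had 2.85, 2.26 and 2.62 CPM in root libraries, and 0.417, 0.591 and 0.632 CPM in aerial libraries (2.20, SE 0.31, edgeR adjusted p = 0.00153). SUT2558.1 had 5.77, 4.53 and 4.86 CPM in root libraries, and 0.918, 1.13 and 1.58 CPM in aerial libraries (2.04, SE 0.28, edgeR adjusted p = 0.00149). In both, the lowest root library was above the highest aerial library. SUT1164.1 had 3.18, 2.68 and 4.60 CPM in root libraries, and 0.835, 0.215 and 1.20 CPM in aerial libraries (2.25, SE 0.50, edgeR adjusted p = 0.00982), so its aerial replicate 2 was low beside the other aerial libraries. SUT435, SUT222 and SUT423 complete the 8, with log2 fold changes of 2.16, 2.15 and 1.97 and averages of 1.78, 1.38 and 1.96 CPM in root cells, against 0.411, 0.310 and 0.487 CPM in aerial cells. No role is annotated for these 8 loci in the sources used here, and 3 of them have 4-digit part names.

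The SUT loci that fell most in root cells changed somewhat further. SUT1571.1 had 0.0663, 0.357 and 0.384 CPM in root libraries, against 1.50, 2.36 and 5.18 CPM in aerial libraries (-3.44, SE 0.62, edgeR adjusted p = 0.00429). Both the lowest root library and the highest aerial library stood apart from their replicates. The SE was the widest of the 16 loci described here as most changed. SUT1384.2 had 0.464, 0.238 and 0.384 CPM in root libraries, against 3.59, 1.61 and 3.10 CPM in aerial libraries (-2.90, SE 0.44, edgeR adjusted p = 0.00203). SUT1627.2 had 0.332, 0.179 and 0.256 CPM in root libraries, against 2.00, 1.61 and 1.33 CPM in aerial libraries (-2.65, SE 0.39, edgeR adjusted p = 0.00187). In these loci the root libraries rest on few counts each.

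SUT360 had more counts, at 1.06, 1.55 and 1.79 CPM in root libraries, against 7.76, 5.58 and 9.35 CPM in aerial libraries (-2.36, SE 0.31, edgeR adjusted p = 0.00121). SUT242 had 1.19, 0.655 and 0.320 CPM in root libraries, against 4.09, 4.30 and 3.41 CPM in aerial libraries (-2.44, SE 0.40, edgeR adjusted p = 0.00288). These 2 have 3-digit names. The other 6 have 4-digit part names, and of those not yet given, SUT2255.2, SUT2043.1 and SUT1390.4 averaged 0.489, 0.466 and 0.702 CPM in root cells, against 2.64, 2.41 and 3.21 CPM in aerial cells (log2 fold changes -2.42, -2.36 and -2.19).

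**Figure D3:**
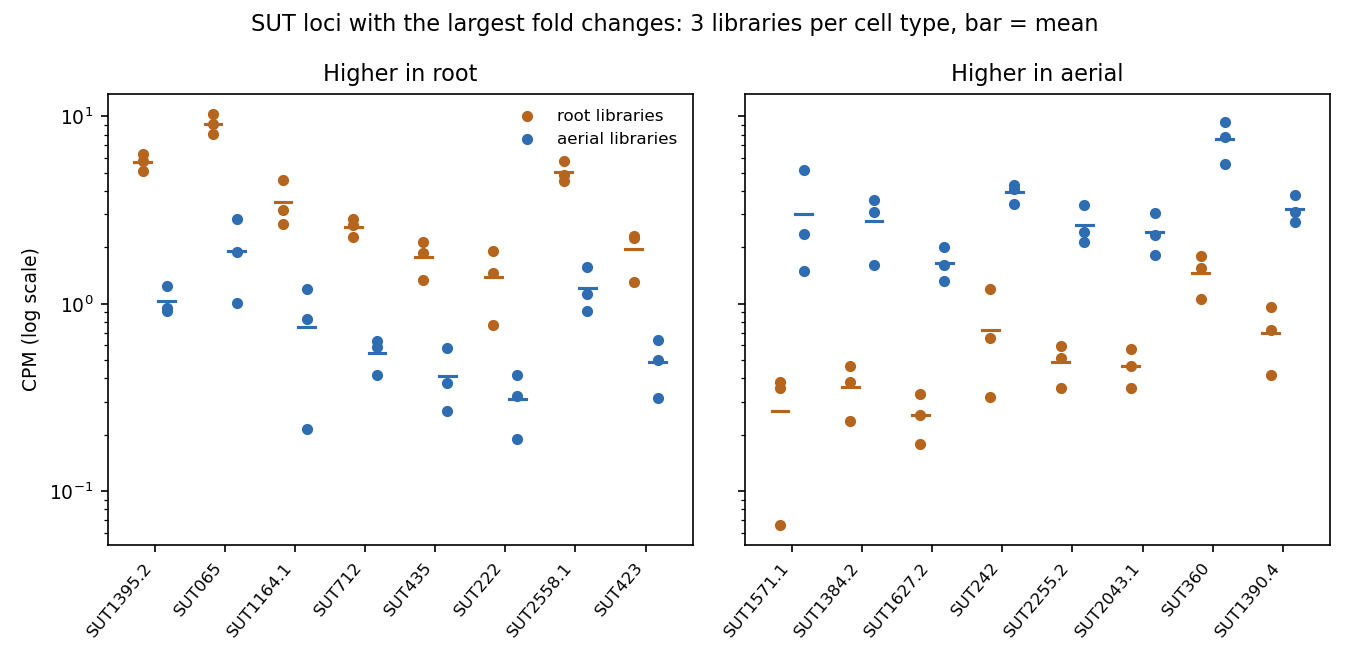
CPM of the 8 SUT loci with the largest increase and the 8 with the largest decrease in root cells is shown for each library on a log axis, with root points and aerial points in separate colours. The loci were picked for having no overlap between the 3 root libraries and the 3 aerial libraries. SUT1571.1 has the lowest root value, 0.0663 CPM.

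The SUT loci with the most counts were not called. SUT802, with 2.48% of all SUT counts, had 94.6, 103 and 115 CPM in root libraries, against 150, 82.7 and 84.1 CPM in aerial libraries (-0.02, edgeR adjusted p = 0.962). SUT2486.1 had 106, 98.7 and 104 CPM in root libraries, against 159, 66.8 and 69.5 CPM in aerial libraries (0.06, edgeR adjusted p = 0.904). In both, the root libraries were close together and aerial replicate 1 lay well above the other aerial libraries, so the root values sat inside the aerial range. SUT670 had 81.9, 85.5 and 90.1 CPM in root libraries, and 95.2, 102 and 90.6 CPM in aerial libraries (-0.16, SE 0.16, edgeR adjusted p = 0.464), the tightest of these loci, with all root libraries slightly below all aerial ones. SUT016 had a log2 fold change of -0.57 (edgeR adjusted p = 0.0935) and SUT514 of 0.23 (edgeR adjusted p = 0.516). The 5 SUT loci nearest to no change among the top 25% by level had log2 fold changes between -0.002 and 0.009 with SEs between 0.18 and 0.27.

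Rows that share a SUT number and differ in the part number mostly moved together. There were 465 rows with part numbers under 376 numbers, and 25 numbers had at least 2 parts tested. In 21 of the 25, all tested parts had the same sign. Across the 25, the log2 fold changes of the first 2 tested parts had a Pearson r of 0.893. This is a description, since the parts share libraries and may be pieces of one transcript. The gap between the highest and the lowest part had a median of 0.33 on the log2 scale. At least 1 part was called in 11 numbers, all tested parts were called in 6, and no number had parts called in opposite directions.

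SUT1161.2, the part with the most counts among these 6 numbers, had 8.89, 11.3 and 10.1 CPM in root libraries, against 42.2, 28.4 and 35.8 CPM in aerial libraries (-1.81, SE 0.22, edgeR adjusted p = 0.00101). SUT1161.1 lay at a lower level, with 0.800 ± 0.0856 CPM in root cells and 3.03 ± 0.682 CPM in aerial cells (SD, n = 3 each), and nearly the same log2 fold change, -1.91. Both parts were thus lower in root by a similar factor. SUT1395.3 rose with SUT1395.2, at 4.44, 2.38 and 3.39 CPM in root libraries, against 1.00, 1.45 and 1.33 CPM in aerial libraries (1.41, edgeR adjusted p = 0.0110). The 3 tested parts of SUT1390 had log2 fold changes of -1.86, -2.19 and -1.62. In the last of these, SUT1390.5, the libraries overlapped (0.729, 0.536 and 1.15 CPM in root, 0.918, 3.87 and 2.46 CPM in aerial). SUT1627.1 fell by 1.85 on the log2 scale, and SUT1781.1 and SUT1781.4 by 1.99 and 1.02. Calls of SUT1390.5 and SUT1781.4 were lost without root replicate 2 (edgeR adjusted p = 0.160 and 0.118) and in 4 other such fits, that of SUT1390.1 without root replicate 3 (0.0798) and in 2 others, and that of SUT1395.3 without root replicate 1 (0.0579).

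The number with the widest gap between parts, 2.09 on the log2 scale, was SUT2493, named after its values were seen. Its parts SUT2493.1, SUT2493.4 and SUT2493.5 were called lower in root (-1.39, -1.46 and -1.97). SUT2493.6 had 0.796, 0.655 and 0.511 CPM in root libraries, against 0.584, 0.591 and 0.632 CPM in aerial libraries (0.11, edgeR adjusted p = 0.838), with overlapping libraries. All 3 calls depended on single libraries: SUT2493.4 lost its call without root replicate 2 (edgeR adjusted p = 0.151) and in 4 other such fits, and SUT2493.1 (0.0843 without root replicate 1) and SUT2493.5 (0.0706 without root replicate 2) in 3 fits each.

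**Figure D4:**
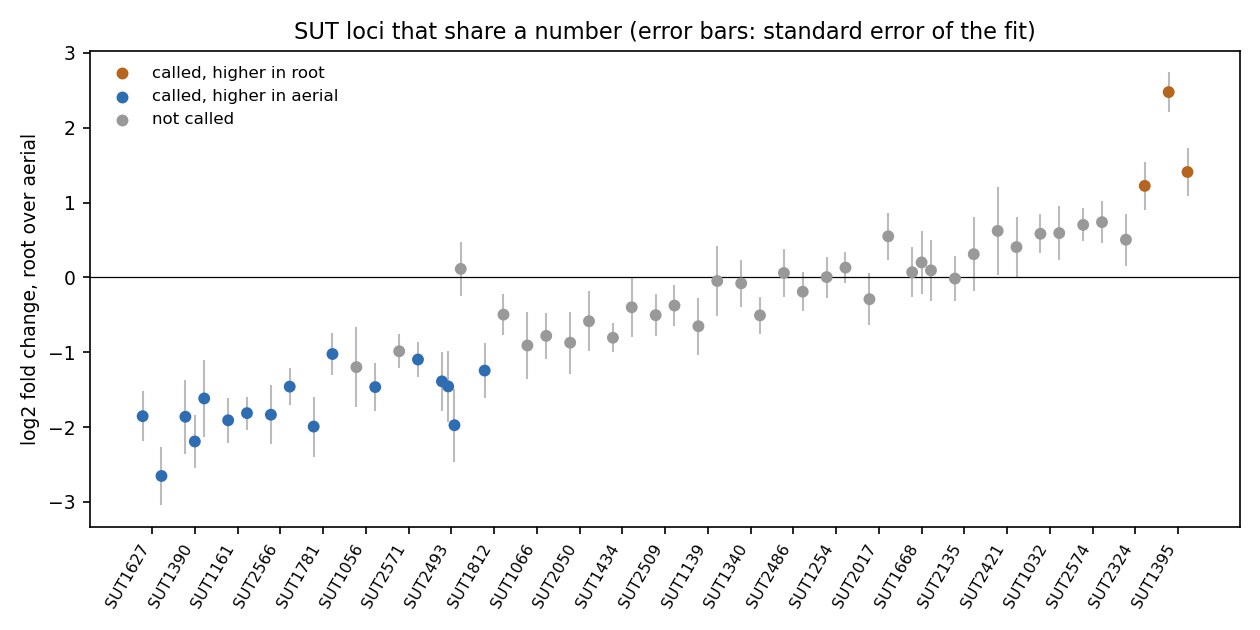
The log2 fold change of root over aerial, with its SE as the bar, is drawn for each tested part of the 25 SUT numbers with several parts tested. Parts of one number lie on the same side of 0 in 21 of the 25. SUT2493 has the widest gap, with SUT2493.6 at 0.11.

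Some numbers were used under both SUT and MUT, 49 in all, and 15 of these had a row of each kind tested, which gives 20 pairs. These pairs were examined after their values were seen. Some rows enter more than 1 pair. Over all loci tested, only 35 of 222 MUT loci and 85 of 235 SUT loci with 4-digit part names lay above 0. Rows below 0 were thus common in both kinds, and the pairs were not compared with rows of unlike numbers. The sign was the same in 16 pairs, and both rows were called in 5, of which 4 pairs were lower in root in both rows. SUT1571.1 (-3.44) stood with MUT1571.1 (-1.33), SUT1389.1 (-1.31) with MUT1389.3 (-1.50), and SUT1491.1 (-1.88) with MUT1491.2 (-1.46) and MUT1491.3 (-1.16). In the one opposite pair, SUT1155.1 was higher in root (1.12, edgeR adjusted p = 0.0333) while MUT1155.1 was lower (-1.99, edgeR adjusted p = 0.00749). Leaving out 1 library at a time, each of the 4 pairs lower in root was called in both rows in 2 of the 6 fits, the MUT row being the one that lost its call, and the opposite pair in 1 of the 6, as SUT1155.1 lost its call in 5. Whether rows of a shared number overlap on the genome is not given in the table.

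Another 13 names occurred on 2 rows each. These 26 rows were kept apart, since the rows of one name differed in total counts by between 1.30 and 218 times. Of the 15 tested, 4 were called, beside 17.9% of all SUT loci and 20.0% of all loci. Both rows were tested in only 6 names, and no name had both rows called. The second row of SUT153 had 9.61, 11.6 and 12.5 CPM in root libraries, against 5.01, 3.65 and 5.24 CPM in aerial libraries (1.28, edgeR adjusted p = 0.00461), while its first row had 1.13, 1.25 and 0.895 CPM in root libraries and 0.918, 1.29 and 1.45 CPM in aerial libraries (-0.17, edgeR adjusted p = 0.706). The root libraries were thus above the aerial ones in the second row and among them in the first. SUT111 was called in its first row (1.20, edgeR adjusted p = 0.0155, and 0.0706 without root replicate 3) and not in its second (0.34, edgeR adjusted p = 0.261). The remaining calls were the second row of SUT082 (-1.44, edgeR adjusted p = 0.0304) and the first row of SUT203 (-1.29, edgeR adjusted p = 0.0342). Leaving out 1 library at a time, that of SUT082 was lost in 3 fits (edgeR adjusted p = 0.127 without root replicate 2). That of SUT203 was lost without root replicate 3 (edgeR adjusted p = 0.156) and in 3 other such fits.

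SUT457 is a non-coding RNA known for an effect on the single-stranded ends of telomeres, and SUT719 runs antisense to SUR7, a plasma membrane protein of eisosomes. SUT457 had 9.95, 6.08 and 8.25 CPM in root libraries, against 4.67, 3.01 and 7.64 CPM in aerial libraries (0.66, SE 0.35, edgeR adjusted p = 0.180). Aerial replicate 3 lay among the root libraries, and the difference did not pass the test. SUT719 had 2.45, 2.92 and 2.62 CPM in root libraries, against 4.17, 2.69 and 2.27 CPM in aerial libraries (-0.18, edgeR adjusted p = 0.678). Its target SUR7 had 39.7, 45.2 and 41.7 CPM in root libraries, against 46.2, 18.9 and 38.3 CPM in aerial libraries (0.29, edgeR adjusted p = 0.480). Both overlapped between the cell types.

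The loci with a position in RefSeq were chosen for it after their values were seen. SUT527 (R64, chromosome VI, 131061 to 131503, minus strand, 443 bases) lies 79 bases from SEC4, which encodes the Rab GTPase of secretory vesicles, and RefSeq notes that its transcript can influence 3′ end formation of the SEC4 mRNA. It had 2.32, 2.26 and 2.11 CPM in root libraries, against 0.835, 0.806 and 0.884 CPM in aerial libraries (1.40, SE 0.27, edgeR adjusted p = 0.00585). It was called higher in root, its replicates were close in both cell types, and the call was present without each library in turn. SEC4 had 222, 177 and 203 CPM in root libraries, against 246, 179 and 265 CPM in aerial libraries (-0.20, edgeR adjusted p = 0.509), which overlapped. Counts per gene do not show where the SEC4 mRNA ended.

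SUT169 (R64, chromosome VIII, 378254 to 379237, plus strand, 984 bases) overlaps SPS100 over 946 bases on the opposite strand. SPS100 encodes a protein of the spore wall, and RefSeq notes that SUT169 raises SPS100 expression through a switch of its isoforms. SUT169 had 5.04, 3.10 and 4.67 CPM in root libraries, against 7.93, 4.99 and 7.45 CPM in aerial libraries (-0.67, SE 0.28, edgeR adjusted p = 0.103). It did not pass the test, and aerial replicate 2 fell within the root range. SPS100 had 370 ± 26.9 CPM in root cells and 1474 ± 426 CPM in aerial cells (SD, n = 3 each; log2 fold change -1.99, SE 0.27, edgeR adjusted p = 0.00139), so the mRNA was lower in root. The library kit marks strand and the study counted reads by strand. Carry-over of SPS100 reads into the SUT169 counts was not tested.

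SUT053 and SUT468 face each other on chromosome IV between PST2 and MRH1. SUT053 (R64, 506334 to 507774, plus strand, 1441 bases) covers all 905 bases of SUT468 (506546 to 507450, minus strand). SUT053 had 3.38, 1.49 and 2.11 CPM in root libraries, against 5.51, 2.42 and 4.93 CPM in aerial libraries (-0.87, SE 0.40, edgeR adjusted p = 0.127). SUT468 had 3.25, 2.44 and 3.20 CPM in root libraries, against 3.59, 1.93 and 4.04 CPM in aerial libraries (-0.10, edgeR adjusted p = 0.844). Neither was called, and both overlapped between the cell types. Neither PST2, which codes for a flavodoxin-like protein (-0.74, edgeR adjusted p = 0.128), nor MRH1, a plasma membrane protein (-0.51, edgeR adjusted p = 0.220), passed the test. Without aerial replicate 2, the lowest aerial library for both, SUT053 (-1.17, edgeR adjusted p = 0.0266) and PST2 (-1.06, edgeR adjusted p = 0.00229) were called lower in root.

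Of the other annotated rows, SUT418 on chromosome XVI had 1.79, 0.596 and 1.73 CPM in root libraries, against 0.751, 0.644 and 0.569 CPM in aerial libraries (1.06, SE 0.46, edgeR adjusted p = 0.108). SUT532 on chromosome VII had 1.46, 0.417 and 1.85 CPM in root libraries, against 0.584, 1.34 and 3.03 CPM in aerial libraries (-0.45, SE 0.62, edgeR adjusted p = 0.616). The libraries overlapped in both and neither passed the test, though SUT418 did without its low root replicate 2 (1.47, edgeR adjusted p = 0.0301). ADH4, an alcohol dehydrogenase gene that lies 905 bases from SUT532, had 73.0, 63.6 and 74.0 CPM in root libraries, against 38.1, 40.1 and 36.0 CPM in aerial libraries (0.88, edgeR adjusted p = 0.00440), under the 2-fold limit of a call. SUT125 had 2 to 8 counts per library and was not tested.

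**Figure D5:**
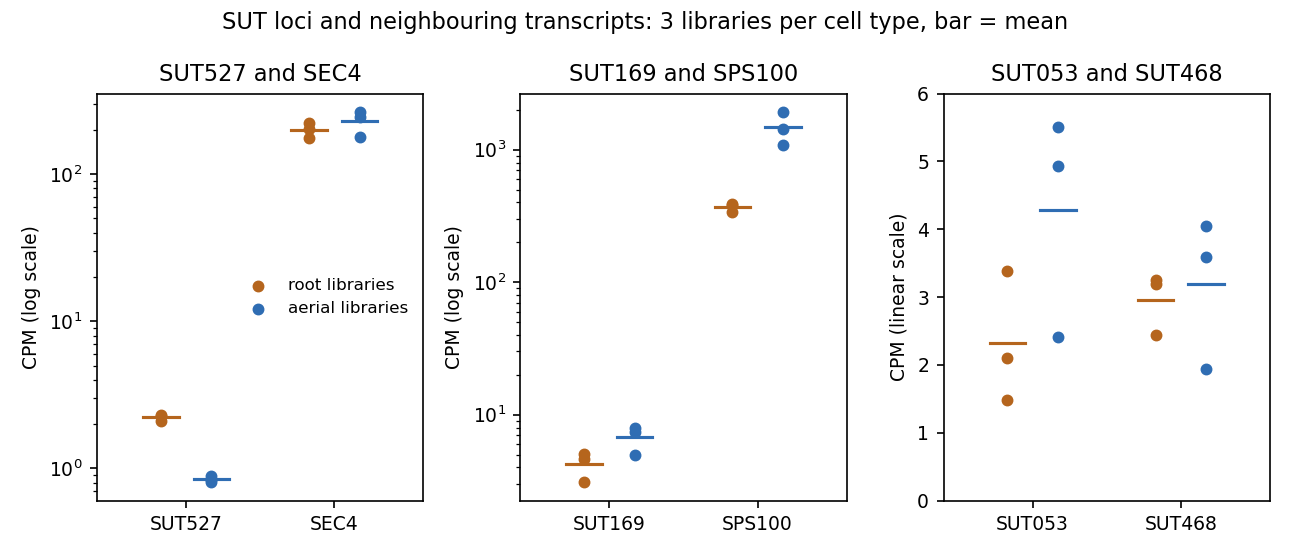
CPM per library is plotted for SUT527 with SEC4, for SUT169 with SPS100 (log axes) and for the overlapping SUT053 and SUT468 (linear axis), root libraries left of aerial libraries. SUT527 is higher in root at 2.11 to 2.32 CPM, and SPS100 is lower in root at 339 to 389 CPM.

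RNA surveillance and decay set how long non-coding transcripts last: the Nrd1 and Nab3 complex ends them, the TRAMP complex adds a short tail and the exosome degrades them, while Xrn1 and Rat1 remove decapped RNA from the 5′ end. The 20 genes listed cover these steps and also include DCP1 and DCP2, which remove the cap, and NAM7, NMD2 and UPF3, which act in nonsense-mediated decay in the cytoplasm. All 20 were tested, 4 were called higher in root and none was called higher in aerial, against 10.8% and 9.2% of all loci. The exosome nuclease genes RRP6 (1.07, edgeR adjusted p = 0.0144) and DIS3 (1.06, edgeR adjusted p = 0.0133) and the TRAMP genes AIR1 (1.23, edgeR adjusted p = 0.00880) and MTR4 (1.32, edgeR adjusted p = 0.0219) were the ones that rose. RRP6 had 247, 279 and 258 CPM in root libraries, against 118, 171 and 85.3 CPM in aerial libraries, which did not overlap.

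The other genes of that list changed less. PAP2, the poly(A) polymerase of TRAMP, had a log2 fold change of 0.73 (edgeR adjusted p = 0.0165), its partner AIR2 of 0.60 (edgeR adjusted p = 0.0449) and the nuclear exonuclease gene RAT1 of 0.89 (edgeR adjusted p = 0.0295), all under 2-fold, although RAT1 passed 2-fold without aerial replicate 2 (edgeR adjusted p = 0.00142). NRD1 (0.28, edgeR adjusted p = 0.331) and XRN1 (-0.33, edgeR adjusted p = 0.260) did not pass. Neither did NAB3 (-0.15, edgeR adjusted p = 0.615) and SEN1 (-0.04, edgeR adjusted p = 0.915). Over the 20 genes the log2 fold changes ran between -0.33 and 1.32 with a median of 0.27, beside -0.03 over all loci, and 15 lay above 0. Without aerial replicate 3, RRP6 (0.85) and DIS3 (0.86) fell under the 2-fold limit, and MTR4 passed an adjusted p of 0.05 in only 1 of the 6 fits that leave out a library. The part of these genes in the levels of SUT loci was not tested. The study reports genes of ribosome biogenesis as a major group higher in root, and how far this list overlaps that group was not examined.

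About as many SUT calls were lost as were kept when single libraries were left out. Of the 131 called, 63 were called in each of the 6 such fits (32 higher in root and 31 higher in aerial), and 68 lost the call in at least 1. Each such fit has fewer libraries, and the same count is not given here for all loci. Whether the loss is particular to SUT loci was not tested. The total number called was 75 without root replicate 1 and 85 without root replicate 3. The least stable by adjusted p were SUT506, SUT729 and SUT226. SUT506 (1.06, edgeR adjusted p = 0.0499) lost its call in each of the 6 such fits, with 0.175 without root replicate 1. SUT729 (1.21, edgeR adjusted p = 0.0476) lost its call in 5, with 0.173 without root replicate 3. SUT226 (-1.62, edgeR adjusted p = 0.0458) also lost its call in 5, with 0.170 without aerial replicate 3. SUT226 had 7.03, 2.56 and 6.33 CPM in root libraries, against 5.51, 18.8 and 24.3 CPM in aerial libraries, and its aerial replicate 1 lay within the root range. DESeq2 called 133 SUT loci, and 122 were called by both tools.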

How the data were processed

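Ribosomal RNA-depleted, strand-specific RNA-seq libraries were compared from root cells (n = 3) and aerial cells (n = 3). The authors aligned reads with TopHat2 2.0.14 to the R64 genome and deposited whole-number counts per locus from featureCounts, coding and lncRNA together, which are not normalized. How reads in overlapping or repeated loci were assigned is not given in the sources used here. Every value column was used (0 left out). One unnamed line with 2 to 6 counts per library was not used, and rows of a repeated name were kept apart.

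In R 4.3.3, edgeR 4.0.16 was run on all loci together (filterByExpr, TMM factors, glmQLFit and glmQLFTest, prior count 0.125, no covariate), with Benjamini-Hochberg adjustment over the 7971 loci tested. Calls needed an adjusted p below 0.05 and a fold change of at least 2. CPM values use library totals multiplied by TMM factors (0.871 to 1.09). DESeq2 1.42.0, other scalings and filters, a replicate block and leaving out each library were alternatives. Scripts were tested on simulated data.

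SUT loci named were the 8 with the largest change in each direction among called loci whose CPM did not overlap. Also named were the 5 with the most counts, the 5 nearest to no change among the top 25% by level, repeated names, SUT457 and SUT719. Further ones were up to 5 numbers with all tested parts called (the sixth, SUT2566, is not described). The last were the called loci that lost the call most clearly when a library was left out. Loci with a RefSeq position, SUT2493 and numbers shared with MUT were added after their values were seen. The split of SUT loci by name form was not planned beforehand either. The members and lists were chosen with earlier results of these data known. Names and positions of neighbouring genes, and sequences, are from RefSeq on R64.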

Additional observations from a re-analysis of the deposited data

How the results depend on the processing

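The 131 SUT calls (62 higher in root, 69 higher in aerial) numbered 126 to 139 under other scalings, DESeq2, no filter, a larger prior count or summed repeated names. With at least 10 counts in every library, which tests fewer loci, they were 78 (40 and 38). Leaving out 1 library gave 75 to 157 calls, 36 to 74 higher in root and 38 to 96 higher in aerial. Calls higher in aerial were 39, 38 and 44 without root replicates 1, 2 and 3 and 45 without aerial replicate 3, and calls higher in root 36 and 41 without root replicates 1 and 3. The median log2 fold change then ran between -0.141 and 0.0339. The share of counts on SUT loci was 0.440% in root cells and 0.479% in aerial cells without the 10 loci with the most counts, and 0.361% and 0.384% without the 5 leading SUT rows. That of lncRNA counts was 35.0% and 34.7% without the 5 leading lncRNA rows. The cause was not tested.

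No effect shared by root and aerial libraries of one replicate number was seen (residual correlations -0.142, 0.140 and -0.044). Only root replicate 2 correlated best with its own number. With so few libraries this cannot show whether root and aerial libraries of a number were harvested together. With the replicate block, 134 SUT loci were called (64 higher in root and 70 higher in aerial). SUT729 (adjusted p = 0.0524) and the first row of SUT203 (0.0642) lost their calls with it.

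For the 66 loci named, 876 of 966 alternative values were on the same side of the threshold in the same direction, 69 no longer passed, 5 newly passed and 16 turned sign, none of them in a called locus. By setting, SUT802 was at 0.0374 with the block and SUT2486.1 at -0.00828 with upper quartile factors. Leaving out 1 library gave ranges of -0.17 to 0.33 for SUT802, -0.16 to 0.60 for SUT2486.1, -0.37 to 0.12 for SUT468, -0.81 to 0.29 for SUT532, -0.35 to 0.11 for SUT719, -0.0394 to 0.31 for SUT2493.6, -0.32 to 0.00306 for the first row of SUT153 and -0.000878 to 0.57 for SUR7. Loci with few counts are limited by depth.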
